A study of Mus musculus with 8 samples.

Results

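The transcriptional response of p53-null mouse embryonic fibroblasts to ultraviolet light was described here across 15857 genes, out of 39175 listed, that were tested for UV against untreated cells in the authors' deposited table. The genes were taken as all those with a completed test in that table, without regard to direction or size. The fibroblasts, connective tissue cells grown from embryos, carried p53-/- on a C57BL/6J background, and this group is called p53KO. They were left untreated or exposed to 40 J/m2 from a germicidal lamp emitting mainly at 254 nm, and collected 16 h later. A second line with the p53-/-Cry1-/-Cry2-/- genotype, called p53CryKO, was treated the same way and is used below for the level before UV and to compare the response. All 4 groups therefore lack p53, and no p53-proficient cells are among the 8 samples. Each group had 2 biological replicates, which the authors merged into 1 FPKM for each gene and group, an abundance corrected for transcript length and sequencing depth. Whether the replicates derive from different animals is not given in the labels, so p-values cover only the variation seen between these samples, which may be technical.

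Ultraviolet light links neighbouring pyrimidines in DNA, and an RNA polymerase II that meets such a lesion stalls. Nucleotide excision repair removes the lesions, translesion polymerases copy past them, and the ATR kinase holds the cell cycle while this goes on. Messenger RNAs differ widely in lifetime: transcripts of regulators of signalling and transcription are typically short-lived, and those of metabolic and structural proteins are typically long-lived. Without p53, the cell lacks the main activator of CDK inhibitor and apoptosis genes after DNA damage.

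Transcripts of Trp53 itself were still counted in the cells labelled p53KO, at 78.8 FPKM untreated and 95.0 after UV (not called), so these values give no check of the deletion. In the cells labelled p53CryKO, Cry1 stood at 3.34 FPKM untreated and 3.79 after UV and Cry2 at 4.54 and 1.10, against 3.85 and 4.55 and 2.44 and 0.488 in p53KO cells, so the loss of the cryptochromes is not seen in these values either and the genotype rests on the label. Most fibroblast markers were measured in both conditions, with 4 called higher and 6 lower of the 10 at FPKM of 1 or more. Their summed FPKM over 12 markers was 4320 untreated and 4947 after UV. S100a4 (1570 and 941) and Vim, the mesenchymal intermediate filament (1238 and 2502), made up most of it. Pdgfra, Pdgfrb and Dcn stood at 17.7, 17.0 and 17.1 untreated. Fap stood at only 0.198 and 0.217, and Lum, a matrix proteoglycan, was at or below 0.0502 FPKM. Epithelial markers summed to 63.4 FPKM untreated, nearly all of it Krt19 (62.7, and higher after UV by 0.97 on the log2 scale), while Epcam, Cdh1 and Krt5 were at or below 0.0862. Endothelial markers summed to 1.29 and 1.84, haematopoietic markers to 6.49 and 14.3, skeletal muscle markers to 4.05 and 5.39, and adipocyte markers to 10.2 and 18.4. Neural markers summed to 56.3 and 23.2, mostly Tubb3, a tubulin (48.1 and 10.3, not called). Cd68, a lysosomal protein abundant in macrophages, went from 2.41 to 12.5 FPKM, Cd14, a monocyte receptor, fell by 1.84 on the log2 scale, and Ptprc, which marks all leukocytes, was at or below 0.00479. In bulk RNA, fewer cells of a type and less RNA per cell cannot be told apart.

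A gene is called higher or lower here where q in the authors' deposited table was 0.05 or less. By that rule 8065 of the 15857 genes (50.9%) were called, 3796 higher and 4269 lower after UV. Among the 11951 genes with an FPKM of at least 1 in a condition and above 0 in both, which serve as the background for every gene group below, 3469 were higher (29.0%) and 3790 lower (31.7%). The median log2 fold change of these 11951 genes was 0.05 and the median standard error implied by the authors' test statistic was 0.35. Changes of at least 4-fold were more often falls than rises, with 899 genes lower (7.52%) and 509 higher (4.26%). The central 90% of log2 fold changes ran from -2.31 to 2.13.

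Those directions depend on how the groups are scaled to each other. The deposited FPKM values are balanced on the typical gene, whereas total FPKM of protein-coding genes was 2.01 times larger after UV. Scaled to equal summed coding FPKM, every log2 fold change would be lower by 1.01, and the split would be 4.59% higher and 49.8% lower. Scaled to equal total fragments, the shift would be 0.78 and the split 7.21% higher and 43.6% lower. Counts of fragments were not available, so these totals were estimated as FPKM times annotated exonic length, summed over genes. Exonic length here is that of all annotated exons of a gene, merged over its transcripts. It can exceed the length of any single transcript, so the totals are approximate. These recalls use a normal p from the implied error, which at a shift of only 0.05 gave 20.4% higher and 25.9% lower. Falls described below keep their direction under each of these scalings, and rises are relative to the typical gene unless said otherwise. Of the 43 gene groups, 20 had a positive median. The 5 that stayed positive at equal coding FPKM were respiratory complex I, complexes II to IV, ATP synthase, the CCT chaperonin and the long noncoding RNAs. At that scaling the long noncoding list had a median of only 0.08, with 6 of 18 higher and 6 lower. The CCT list had a median of 0.34, with 2 of 8 higher and 0 lower.

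The RNA pool became more concentrated after UV. The 100 most abundant tested genes made up 34.5% of summed FPKM in untreated cells and 48.6% after UV, and the number of genes needed to reach 50.0% of the sum went from 283 to 108. Genes above 100 FPKM went from 800 to 1254. Beside the mitochondrial ribosomal RNA given below, the largest gains in FPKM itself were in Rplp1 (5840 to 27240) and Rps12 (4390 to 18316), which encode ribosomal proteins, and in Lgals1 (4786 to 18205), which encodes galectin-1, a secreted carbohydrate-binding protein. Among called genes, the largest losses were in Actb (3475 to 1105), the cytoplasmic beta-actin, Ptma (1254 to 294), the acidic nuclear protein prothymosin alpha, Tubb5 (1140 to 455), a beta-tubulin, and S100a4 (1570 to 941), a calcium-binding protein. Genes of these ribosomal, actin, tubulin and prothymosin families have near-identical copies in the genome, so the split of their reads is uncertain. Cyr61 (456 to 91.2) and Thbs1 (436 to 96.8), both matricellular proteins, also lay among the 10 largest losses.

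**Figure D1:**
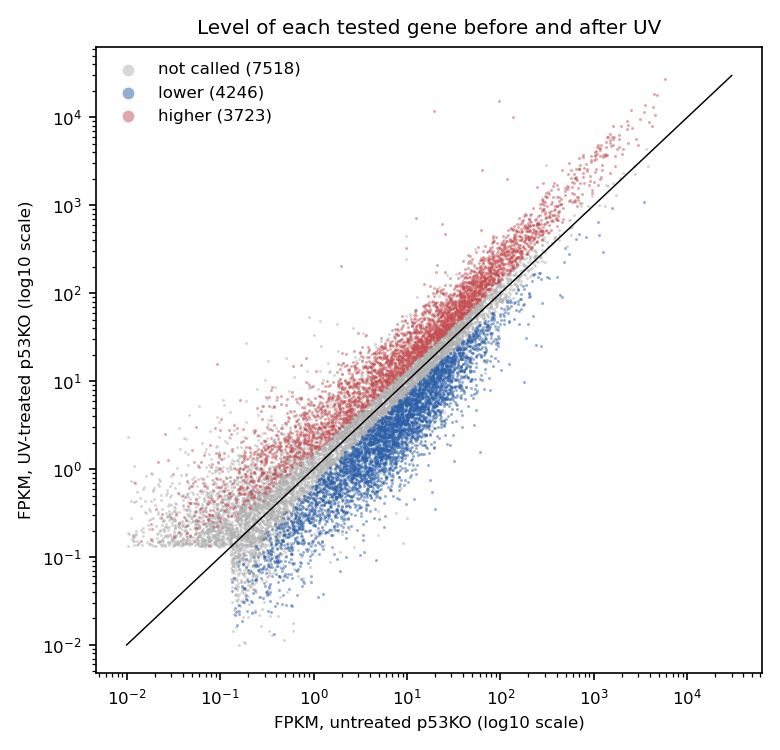
FPKM after UV (vertical, log10 scale) against FPKM in untreated p53KO cells (horizontal, log10 scale) for tested genes above 0.01 in both, 1 point per gene, coloured by call in the authors' deposited table. Genes above about 100 FPKM lie mostly on or above the line of equality, while genes of 2 to 10 FPKM spread mostly below it.

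Level before UV was read from the untreated p53CryKO cells, whose samples are not part of the p53KO contrast. Of 10 equal bins by that level, the top one had a median of 137 FPKM, and in it 63.3% of genes were called higher, 10.4% were called lower and the median log2 fold change was 0.87. In the middle of the range, around a median of 6.91 FPKM, 18.2% were higher and 45.3% lower, with a median of -0.55. The bottom bin, with a median of 0.522 FPKM, had a median log2 fold change of 1.04, but a gene at that level enters the background mainly through a value of at least 1 after UV. Across 11930 genes the Spearman correlation was 0.07, since both ends of the range were high. The bins also differed in exonic length, with medians of 2861 bases in the top, 5064 in the middle and 2267 in the bottom bin. Level and length were not separated here.

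Genes of short exonic length were mostly higher and those of long exonic length more often lower after UV. Genes were put into 10 equal bins by exonic length, merged over the transcripts of each gene. It is not the length of the transcripts present in these cells. In the bin of shortest exonic length, with a median of 481 bases, the median log2 fold change was 1.68. In it 51.8% of genes were called higher and 1.86% lower. In bin 9, with a median of 8286 bases, it was -0.48, with 16.3% higher and 44.8% lower. The bin of longest transcripts stood at -0.37. The Spearman correlation between exonic length and log2 fold change was -0.38 over 11820 genes and -0.26 over the 10468 protein-coding ones. Genomic span, which is what a transcribing polymerase must cross, gave -0.32 over all genes but a median of -0.04 within bins of exonic length. Exonic length within bins of span kept a median correlation of -0.17. These are descriptions across genes that share the same 4 libraries, and the cause was not tested.

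**Figure D2:**
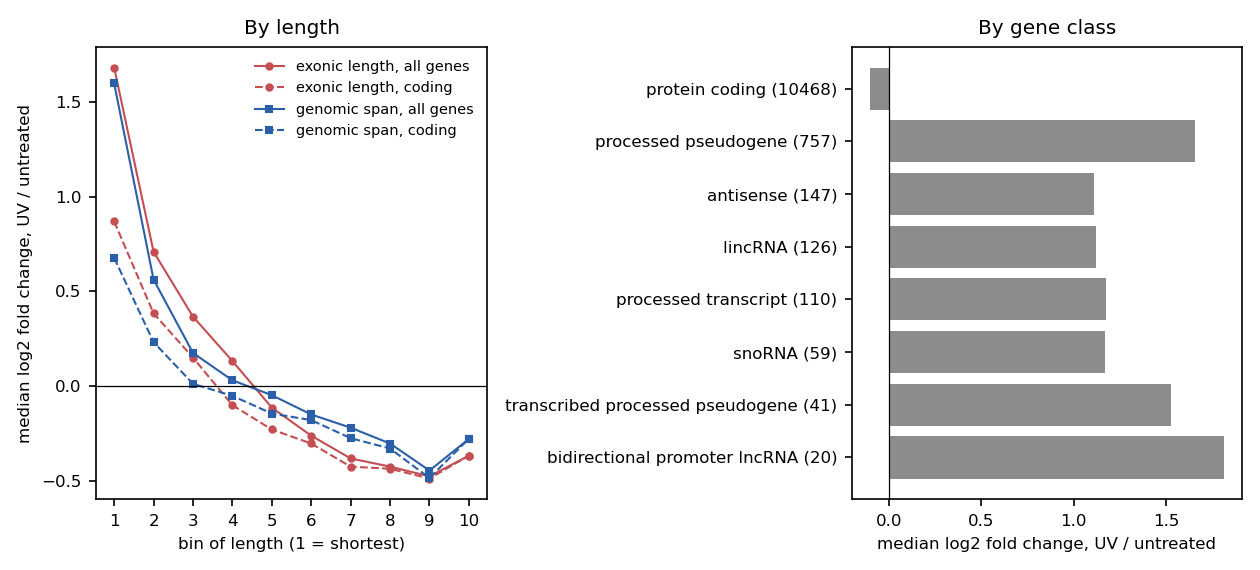
Median log2 fold change after UV (vertical, log2) by bin of exonic length and of genomic span (left, 10 equal bins, bin 1 is shortest), for all genes and protein-coding genes with FPKM of 1 or more, and by annotated gene class (right, number of genes in brackets). Medians fall from 1.68 in bin 1 to -0.48 in bin 9 of exonic length over all genes, and from 0.87 to -0.49 over protein-coding genes. Pseudogenes and noncoding classes lie above the protein-coding median of -0.11.

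The gene classes differed in the same sense. Protein-coding genes had a median of -0.11, with 2831 higher and 3707 lower. Processed pseudogenes, intronless copies of mRNAs, had a median of 1.66, with 435 of 757 higher and 17 lower. Their median exonic length was 463 bases, and they are near-copies of their parent genes, so the split of reads between the copies is uncertain. Long intergenic RNAs (126 genes, median 1.12) and antisense transcripts (147 genes, median 1.11) also lay above the coding genes. Protein-coding genes with a single exon had a median of 0.27 over 225 genes. Over the autosomes and the X, medians ran from -0.19 on chromosome 15 to 0.42 on the X, where 157 of 419 genes were higher and 100 lower.

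Several of the largest rises were RNAs that normally carry no poly(A) tail, although the libraries were poly(A)-selected. Rn7sk, the RNA of the complex that restrains the elongation kinase P-TEFb, went from 1.97 to 203 FPKM. The mitochondrial ribosomal RNAs mt-Rnr1 and mt-Rnr2 went from 96.0 to 15208 and from 64.1 to 2510, and the histone genes Hist1h4a, Hist1h4h and Hist1h4k rose by 4.40, 3.58 and 3.41 on the log2 scale. By contrast, the mitochondrial messengers mt-Nd1 (3825 and 2813), mt-Nd2 (2730 and 2301), mt-Nd5 (1424 and 1672) and mt-Cytb (3585 and 4413) were not called. mt-Co2 rose from 45.5 to 110 and mt-Nd3 fell from 37.2 to 19.6. The authors' test gave no result for mt-Co1, mt-Atp6, mt-Atp8, mt-Co3 and mt-Ts1 because too many fragments mapped there, and mt-Co1 is listed at 2370 untreated and 0 after UV, so the mitochondrial set is incomplete. Among called genes, 72 are listed at 0 in untreated cells and 23 at 0 after UV, and no fold is given for them. The cause of the rise of the tail-less RNAs was not tested.

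Repair genes were read first among the gene groups. Of 28 measured genes of nucleotide excision repair, 8 were higher and 8 lower, shares near those of the background. Their median of 0.25 turns to -0.53 at equal total fragments. Ercc2, the XPD helicase of TFIIH, fell from 9.90 to 2.59 FPKM (-1.93 on the log2 scale, with an implied SE of 0.48), and Ercc4, the XPF nuclease subunit, fell from 2.29 to 0.680 (-1.75). Ercc6, the CSB protein that recognises stalled polymerase, fell from 2.12 to 0.723 (-1.56), and Rpa2, a subunit of the single-stranded DNA binding complex, fell from 30.0 to 10.7. Of 17 genes of translesion synthesis and PCNA ubiquitination, 3 were higher (17.6%) and 5 lower (29.4%), against 29.0% and 31.7% of the background. Polh, the polymerase that copies accurately past cyclobutane dimers, fell from 14.0 to 2.82 FPKM (-2.32, implied SE 0.30), and Rev1, the scaffold of the translesion polymerases, fell by 1.73 on the log2 scale (implied SE 0.89). Mad2l2, the Rev7 subunit of polymerase zeta, rose instead, from 17.8 to 40.9 (1.20).

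Among 48 checkpoint and recombination genes, 21 were lower and 6 higher, against 31.7% and 29.0% of the background. Wee1, the kinase that holds CDK1 inactive, fell from 5.55 to 0.694 FPKM (-3.00, implied SE 0.38). Both Cdc25a (15.2 to 2.38, -2.68, implied SE 0.30) and Cdc25b (17.7 to 2.42, -2.88, implied SE 2.12), the phosphatases that oppose it, were lower as well, the second with a wide error. Fancf, part of the Fanconi anaemia core complex, fell from 6.01 to 0.777.

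Of 27 genes of the G1 to S step, 17 were lower and 4 higher, with a median of -1.08. The largest rise was 1.36 on the log2 scale. Summed over the 27 genes, FPKM went up from 1763 to 2925, so the fall does not hold for all abundant members. Inhibitors of cyclin-dependent kinases were among the largest falls: Cdkn2c (12.9 to 1.11 FPKM, -3.54), Cdkn2b (24.7 to 3.64, -2.76) and Cdkn1b (15.6 to 3.05, -2.35). E2f8, a repressor of E2F targets, fell from 8.08 to 0.926. Of 51 mitotic genes, 19 were lower (37.3%) and 12 higher (23.5%), against 31.7% and 29.0% of the background. Ccnf, the cyclin F subunit of a ubiquitin ligase, fell from 31.7 to 1.23 FPKM (-4.69, implied SE 0.32), Cdk1, the mitotic kinase, from 275 to 25.4 (-3.44), and Aurkb, the chromosomal passenger kinase, from 52.5 to 13.2. Birc5, its partner survivin, stood at 191 and 147 and was not called. Of 51 replication genes, 18 were higher (35.3%) and 14 lower (27.5%), shares near those of the background. Their median of 0.23 turns to -0.56 at equal total fragments. Rfc4, a clamp loader subunit, rose from 10.5 to 36.5 and Pole4, a polymerase epsilon subunit, from 63.7 to 203, while Gins3, part of the replicative helicase, fell from 9.82 to 1.75 and Orc1, the origin licensing subunit, from 3.45 to 0.836.

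Genes of the transcription machinery went both ways, as the background did. Of 48 RNA polymerase II subunits and general factors, 20 were higher (41.7%) and 18 lower (37.5%), a median of -0.04. The background shares were 29.0% and 31.7%. Tbp, the TATA-binding protein, fell from 21.1 to 5.34 FPKM (-1.98, implied SE 0.94), Cdk7, the TFIIH kinase, from 5.47 to 1.28, and Ccnt1, the cyclin of P-TEFb, from 11.3 to 2.92. Larp7, which binds and stabilises the 7SK RNA, rose from 14.7 to 58.6 FPKM, beside the rise of Rn7sk given above. Polr2e, a subunit shared by the RNA polymerases, stood at 120 and 144 and was not called. Of 29 Mediator subunits, which bridge activators and polymerase, 8 were higher and 9 lower, shares near those of the background. Med18 (4.66 to 0.486, -3.26) and Med26 (8.76 to 1.52, -2.53) had the largest falls.

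Sequence-specific factors and chromatin enzymes were mostly lower. Of 209 measured genes named Zfp, most of them zinc finger DNA-binding proteins, 120 were lower and 25 higher, with a median of -0.87. Zfp41 fell from 3.44 to 0.114 FPKM (-4.92) and Zfp12 from 4.46 to 0.448 (-3.32). Of 15 Klf and Sp factors, 12 were lower and 2 higher, and Sp1, which binds GC boxes, fell from 12.2 to 0.995 FPKM (-3.61, implied SE 0.50). Of 28 Hox genes, which keep positional identity in fibroblasts, 17 were lower and 1 higher. Hoxa10 (38.4 to 4.57, -3.07), Hoxb8 (6.92 to 0.878) and Hoxc13 (3.86 to 0.597) were among the falls. Of 23 nuclear receptors, 12 were lower and 3 higher, with Rara, a retinoic acid receptor (15.2 to 1.48, -3.37), and the orphan receptors Nr2f2 (19.5 to 2.06) and Nr2f1 (4.48 to 0.530) lowest.

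Histone lysine methyltransferases and demethylases gave 28 lower and 3 higher of 42, with a median of -1.19. Setd1a (10.8 to 1.62 FPKM, -2.74) and Kmt2b (9.15 to 1.62, -2.50), which methylate histone H3 lysine 4 at promoters, and Kdm2b (9.93 to 1.84), a CpG-binding demethylase, fell together with Suv420h2 (7.06 to 0.824), a histone H4 methyltransferase. The 3 that rose were Setd3, Ehmt2 and Setd6 (14.2 to 30.3, 1.09); the changes of Setd3 (25.0 to 34.0) and Ehmt2 (77.7 to 131) turn negative at equal coding FPKM. Ezh2, the Polycomb methyltransferase, stood at 33.6 and 40.8 and was not called. The list's median exonic length was 7778 bases, and with the median of each gene's length bin taken off its median was -0.82.

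In RNA processing, genes of the splicing particles and of decay pointed opposite ways. Of 29 snRNP and LSm proteins, 14 were higher and 5 lower, a median of 0.66 that turns to -0.12 at equal total fragments. Snrpa1 rose from 42.1 to 169 FPKM and Snrpf from 184 to 603, while Lsm2 fell from 200 to 44.6. Of 29 genes of deadenylation and AU-rich mRNA decay, 20 were lower and 4 higher, with a median of -0.79. Dcp1a, a decapping cofactor, fell from 4.22 to 0.562 (-2.91), Ddx6, a helicase of processing bodies, from 26.1 to 5.45 (-2.26), and Khsrp, which binds AU-rich elements, from 48.5 to 10.5 (-2.21). Btg2, an antiproliferative partner of the deadenylase, rose from 3.42 to 18.8 (2.46). Of 22 nucleoporins, 8 were lower (36.4%) and 4 higher (18.2%), against 31.7% and 29.0% of the background. Nup153 (22.8 to 3.72) and Pom121 (20.1 to 3.79) fell most.

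Nuclear-encoded subunits of oxidative phosphorylation were called higher almost throughout. All 37 measured subunits of complex I were called higher, 21 of 25 of complexes II to IV and all 15 of ATP synthase, with none lower in any of these lists. Their medians were 1.63, 1.64 and 1.43. Within complex I the members ranged from 0.68 to 2.19, and Ndufa3 (157 to 718 FPKM), Ndufa2 (185 to 794), Ndufa1 (130 to 549) and Ndufa5 (140 to 584) gained most. Uqcrq of complex III went from 377 to 1798 and Cycs, cytochrome c, from 83.9 to 389 (2.21, implied SE 0.41). Cox4i1, a nuclear-encoded subunit of complex IV, stood at 694 and 2686 but was not called, its implied SE being 1.53, and Uqcrh stood at 236 and 271. Atp5e (187 to 785) and Atp5j2 (300 to 1095) were among the largest gains of ATP synthase.

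The exonic lengths of these genes are short, and that moves with the result. Median exonic length was 1569 bases for complex I, 1478 for complexes II to IV and 2181 for ATP synthase. With the median of each length bin taken off, the list medians were 0.96, 0.48 and 1.14. At equal coding FPKM, 14 of 37, 9 of 25 and 2 of 15 members would still be called higher, and 0, 3 and 0 lower. The part of length in the result was not tested.

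Protein synthesis and turnover genes followed with smaller medians. Of 76 mitochondrial ribosomal proteins, 49 were higher and 6 lower, a median of 0.86 that turns negative (-0.15) at equal coding FPKM. Mrpl33 (169 to 662 FPKM), Mrpl13 (77.7 to 303) and Mrpl52 (175 to 676) rose, while Mrpl44 fell from 17.2 to 3.38 (-2.35). Of 62 translation factors and their regulators, 34 were higher and 8 lower, a median of 0.77, which is -0.01 at equal total fragments. All 3 of Eif2s1 (24.2 to 99.9), Eif2s2 (47.9 to 263) and Eif2b3 (9.65 to 49.8), subunits of eIF2 and of its exchange factor, rose, and Eif4ebp2, an inhibitor of cap binding, fell from 22.7 to 4.50 (-2.34). Of 46 proteasome genes, 32 were higher and 2 lower, a median of 0.91 that turns to -0.10 at equal coding FPKM, with Psmd8 (146 to 530) and Psmc6 (39.0 to 121) near the top. All 8 measured subunits of the CCT chaperonin, which folds actin and tubulin, were higher (median 1.34), led by Cct8 (82.6 to 379, 2.20) and Cct4 (97.5 to 339, 1.80). The actin and tubulin transcripts Actb, Actg1, Tubb5 and Tuba1a were lower in the same cells.

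Among aminoacyl-tRNA synthetases 12 of 37 were higher (32.4%) and 9 lower (24.3%), against 29.0% and 31.7% of the background. The cytoplasmic enzymes Lars (17.4 to 61.2) and Dars (23.4 to 79.4) rose, and Pars2, a mitochondrial enzyme, fell from 1.97 to 0.290. Lars2, the mitochondrial leucyl enzyme, is listed at 23.7 and 612 FPKM.

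**Figure D3:**
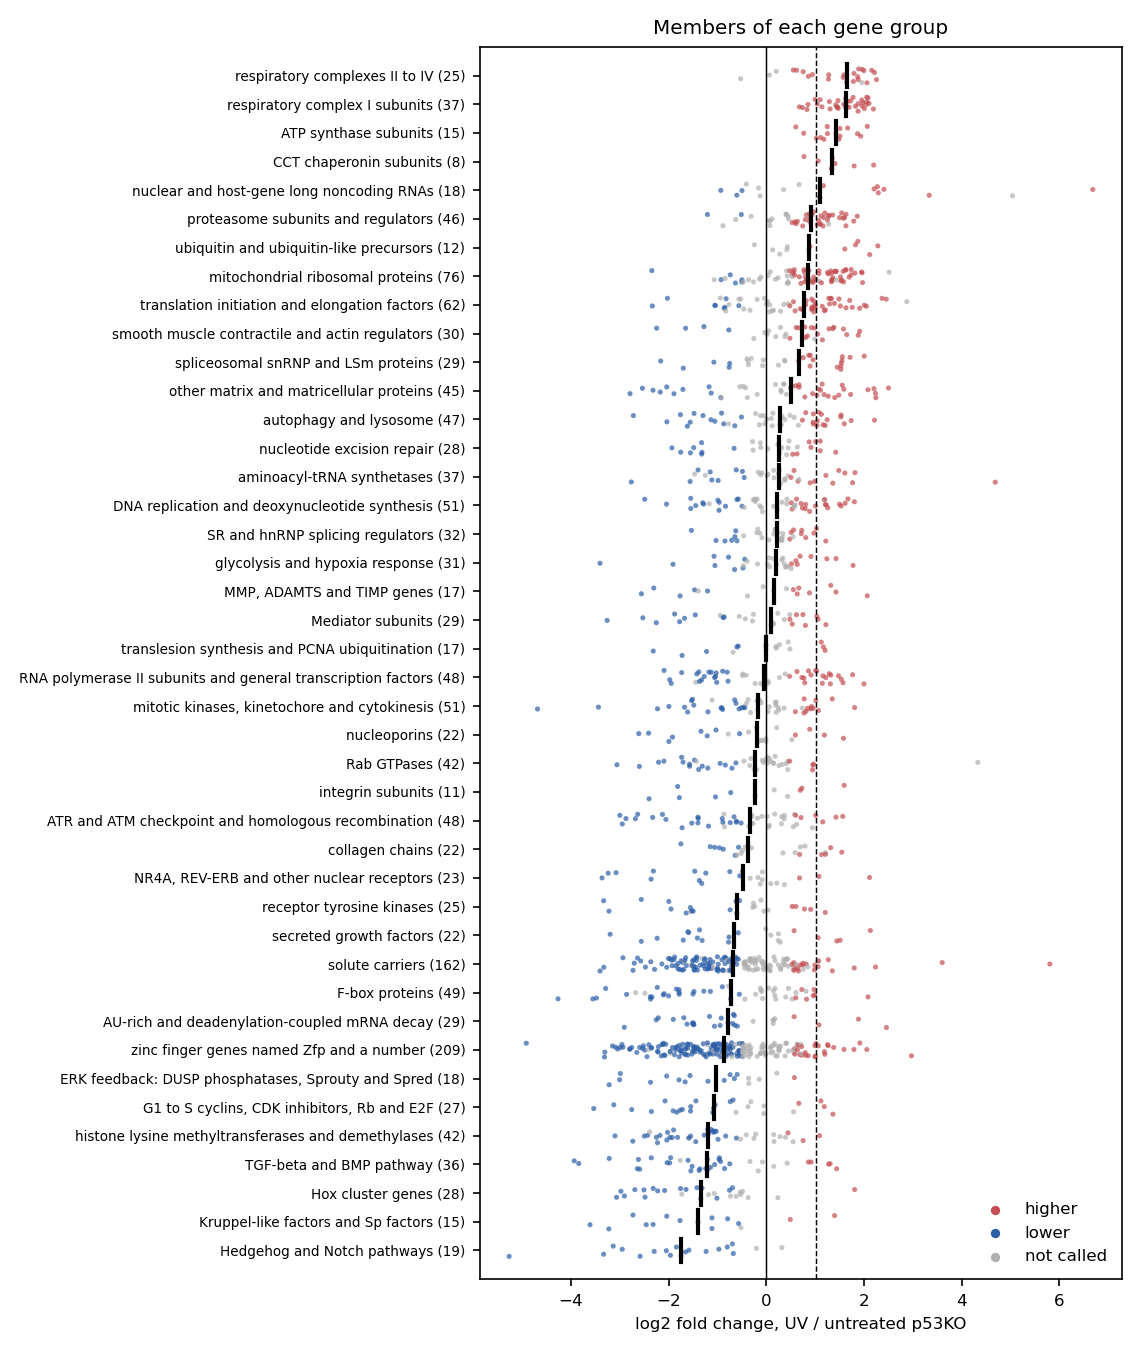
Log2 fold change after UV (horizontal) for measured members of 42 of the 43 gene groups (rows, number of members in brackets), 1 point per gene coloured by call, with the group median as a black bar; the solid line is 0, and the dashed line marks the change that would be 0 at equal coding FPKM. Members of respiratory complex I all lie right of 0, and all but 1 of the Hedgehog and Notch genes lie left of it.

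Of 18 genes of ERK feedback, phosphatases and Sprouty or Spred inhibitors, many of them induced by ERK, 13 were lower and 1 higher, with a median of -1.03. Spred2 fell from 9.46 to 1.02 FPKM (-3.22, implied SE 0.33), Spry3 from 1.22 to 0.152, Dusp7, a phosphatase of ERK, from 25.1 to 3.16 (-2.99), and Dusp10, a phosphatase of p38 and JNK, from 2.51 to 0.485. Dusp8 was the 1 called higher (1.44 to 2.14, 0.57), a change that turns negative at equal total fragments. Dusp1 and Dusp6 stood at 15.5 and 14.0 and at 20.4 and 15.9 and were not called.

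Upstream of this, 13 of 25 receptor tyrosine kinases were lower and 5 higher, and 12 of 22 secreted growth factors were lower and 5 higher. The list medians were -0.60 and -0.67, and -0.15 and -0.47 with the median of each gene's length bin taken off. Erbb2 fell from 8.25 to 0.819 FPKM (-3.33, implied SE 0.98), and the ephrin receptors Ephb3 (3.66 to 0.392) and Ephb4 (14.9 to 2.52) fell, while Fgfr1 stood at 46.8 and 47.9 and was not called. Pdgfa, a platelet-derived growth factor chain, fell from 10.5 to 1.15 (-3.20), and its receptor Pdgfra from 17.7 to 5.66 (-1.64). Bdnf, a neurotrophin, fell by 2.56 on the log2 scale and Fgf7, a fibroblast factor acting on epithelia, from 47.5 to 10.1. Fgf21, a stress-induced hormone, rose from 0.550 to 2.40 (2.13).

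Of 36 genes of the TGF-beta and BMP pathway, 25 were lower and 5 higher, with a median of -1.21. Receptor, inhibitor and target were all represented: Acvr1b, an activin receptor, fell from 1.67 to 0.109 FPKM (-3.94, implied SE 0.48), Smad6, an inhibitory Smad, from 12.6 to 0.879 (-3.84), Bambi, a decoy receptor, from 4.02 to 0.643 (-2.64), and Id1, a BMP target that blocks basic helix-loop-helix factors, from 242 to 26.0 (-3.22, implied SE 0.29). Smad4, the shared co-Smad, stood at 26.4 and 20.9 and was not called. The Hedgehog and Notch list had no gene higher and 17 of 19 lower, with the lowest median of all lists, -1.75. Gas1, a co-receptor for Hedgehog ligands, fell from 60.3 to 1.57 FPKM (-5.27, implied SE 0.31), Ptch1, the Hedgehog receptor and target, from 2.02 to 0.200 (-3.33), Gli2, its transcription factor, from 1.81 to 0.205, and Lfng, which modifies Notch, from 5.73 to 0.741. The 2 not called were Smo (65.9 and 82.1) and Hhip (2.71 and 2.36).

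Of 22 collagen chains, 7 were lower and 5 higher, shares near those of the background. The fibrillar chains Col1a1 (477 to 229 FPKM, -1.06), Col1a2 (548 to 281, -0.96) and Col3a1 (98.1 to 44.3, -1.15) fell, and the basement membrane chains Col4a1 (28.6 to 66.3, 1.21) and Col4a2 (23.9 to 59.6, 1.32) and the fibril-associated Col12a1 (36.4 to 106, 1.54) rose. At equal coding FPKM the changes of Col4a1 and Col4a2 would be 0.20 and 0.31. Of 45 other matrix genes, 22 were higher and 10 lower, a median of 0.50 that turns to -0.29 at equal total fragments. The laminin chain Lama5 (0.449 to 2.54) rose, as did Dcn, the proteoglycan decorin (17.1 to 79.0, 2.20), and Fn1, fibronectin (228 to 518, 1.18). Emilin1, an elastic fibre protein, fell from 48.6 to 7.01 (-2.79), and Wisp1, a matricellular protein of the CCN family like Cyr61, from 12.7 to 2.19.

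Of 11 integrin subunits, 5 were lower (45.5%) and 3 higher (27.3%), against 31.7% and 29.0% of the background. Itga5, the fibronectin receptor chain, fell from 62.7 to 11.9 FPKM (-2.40, implied SE 0.28) while its ligand Fn1 rose. Among 17 metalloproteinases and inhibitors, 7 were higher (41.2%) and 5 lower (29.4%), with Mmp9 (2.32 to 9.72) and Mmp19 (5.53 to 0.939) at the ends. Contractile and actin-regulating genes were higher in 17 of 30 cases and lower in 4, a median of 0.72, which is -0.06 at equal total fragments. Tpm2, a tropomyosin (209 to 786, 1.91), and Cnn1, calponin (64.5 to 238, 1.88), rose, and Mkl1, the actin-sensing coactivator of SRF, fell from 24.8 to 5.23 (-2.25).

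Of 162 solute carriers, 81 were lower and 21 higher. Slc2a1, the GLUT1 glucose carrier, fell from 25.8 to 2.43 FPKM (-3.41, implied SE 0.31), while the glutamate carrier Slc1a6 rose from 1.07 to 13.0 (3.60). Slc25a3 and Slc25a4, mitochondrial carriers of phosphate and adenine nucleotides, stood at 326 and 347 and at 420 and 531 and were not called. Hk2, which phosphorylates the glucose that enters, fell from 14.8 to 3.93 (-1.91), whereas Pgk1, a later glycolytic enzyme, rose from 133 to 357 (1.43). Across 31 genes of glycolysis and the hypoxia response, 8 were higher and 8 lower (25.8% each), near the background shares of 29.0% and 31.7%. Of 49 F-box proteins, substrate receptors of SCF ubiquitin ligases, 23 were lower and 7 higher. Fbxo46 (3.38 to 0.176, -4.27), Fbxo32 (2.24 to 0.190), Fbxl8 (6.56 to 0.588) and Fbxo5, an inhibitor of the anaphase-promoting complex (22.2 to 2.27, -3.29), fell most. Of 42 Rab GTPases, 16 were lower (38.1%) and 4 higher (9.52%). The largest fall was in Rab11b (67.5 to 8.09, -3.06), which recycles endosomes. Autophagy and lysosome genes gave 17 higher (36.2%) and 13 lower (27.7%) of 47, again not far from the background shares. Map1lc3a, an autophagosome protein, rose from 84.7 to 393 (2.21), while Pik3c3, the lipid kinase that starts autophagosomes, fell from 4.95 to 0.749 (-2.72), as did its partner Pik3r4 and the kinase Ulk1 (7.99 to 2.36).

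Of 18 long noncoding and host-gene RNAs, 8 were higher and 3 lower, which would be 6 and 6 at equal coding FPKM. Neat1, the scaffold of nuclear paraspeckles, rose from 20.8 to 210 FPKM (3.33, implied SE 0.35). The snoRNA host genes Gas5 (362 to 1669) and Snhg6 (89.7 to 439), whose spliced RNAs are normally degraded during translation, rose by 2.21 and 2.29 on the log2 scale, while Snhg3 stood at 79.1 and 70.8 and was not called.

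Promoter sequence was compared next, from 250 bases before to 50 after the start, for protein-coding genes with FPKM of 1 or more. Genes on chromosome 18 and on the mitochondrial genome were left out. Of the remaining 10200, 8291 (81.3%) had a promoter in the RefSeq table of GRCm38.p6. The other genes were not analysed here. Letters were searched on both strands. GGGCGG, the GC box bound by Sp factors, was present in 68.4% of these promoters, in 64.0% of genes called higher and in 72.0% of those called lower. CCGGAAG, the core of ETS-family sites, was present in 20.5%, 22.1% and 17.0%. TATAAA was found in 6.42%, 8.23% and 6.02%. The CCAAT box, the CRE letters TGACGTCA, the AP-1 letters TGACTCA and the E-box letters CACGTG each differed by at most 1.16 percentage points between these sets. In the bin, of 10 equal ones, of promoters with most CpG (median 43 in 300 bases) the median log2 fold change was -0.46, with 45.0% lower and 18.3% higher. In the bin with fewest (median 5) it was 0.08, with 29.3% lower and 29.9% higher. Part of that gap is shared with length, since the CpG-richest bin had a median exonic length of 5925 bases against 4098 and a median of -0.22 once the length bins were taken off, against 0.09. A match is a description of letters and does not show that a factor bound.

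**Figure D4:**
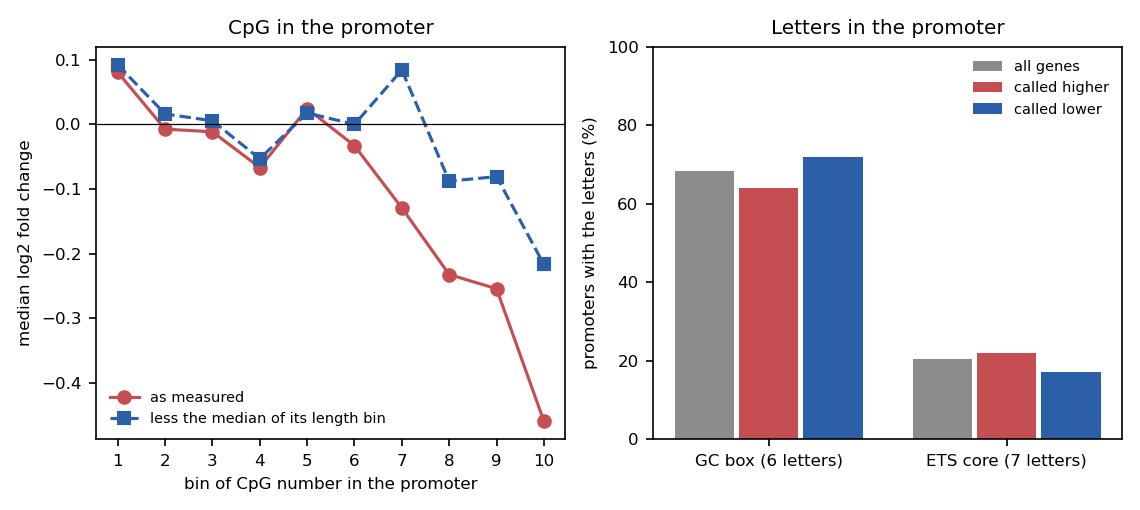
Left, median log2 fold change (vertical, log2) by bin of the number of CpG in the promoter (10 equal bins, bin 10 is richest), as measured and with the median of each gene's bin of exonic length taken off. Right, share of promoters holding GGGCGG or CCGGAAG (percent) in all genes, genes called higher and genes called lower; GGGCGG is at 64.0% in the higher and 72.0% in the lower genes.

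The shares ranged widely between gene groups, and groups with positive and with negative medians lay on both sides of the share in all promoters. GGGCGG was in 45.5% of 33 complex I promoters, 38.9% of 18 of complexes II to IV and 50.0% of 66 mitochondrial ribosomal ones, but in 85.7% of 14 ERK feedback and 84.6% of 26 TGF-beta and BMP promoters. Other groups went the other way, with 61.3% of 31 histone methyltransferase and demethylase promoters and 50.0% of 18 growth factor promoters among lists with negative medians, and 78.3% of 23 snRNP and LSm promoters and 73.5% of 49 translation factor promoters among lists with positive ones. CCGGAAG was in 38.9% of promoters of complexes II to IV, 33.3% of 39 proteasome and 31.8% of mitochondrial ribosomal promoters, and in 0 of 14, 3.85% of 26 and 5.88% of 17 promoters of ERK feedback, TGF-beta and BMP, and Hedgehog and Notch genes. It was in 12.1% of complex I promoters, below the 20.5% of all promoters, and in 29.2% of 24 mRNA decay and 27.0% of 37 F-box promoters, whose lists had negative medians. To show the letters in place, the 150 bases just before the RefSeq start are given, 5′ to 3′ on the gene's strand, with every GGGCGG and CCGGAAG and their reverse complements in capitals. The first 3 are genes of groups with positive medians, picked because they hold CCGGAAG. They lie on chromosome 2 from 174464102 to 174464251 on the minus strand for Atp5e, and on chromosome 14 on the plus strand from 45329674 to 45329823 for Psmc6 and from 54426759 to 54426908 for Mrpl52, in GRCm38.p6. The GC box letters are also present in 1 place in Atp5e and in 4 in Psmc6, so these sequences are not a class apart from the next.
Atp5e: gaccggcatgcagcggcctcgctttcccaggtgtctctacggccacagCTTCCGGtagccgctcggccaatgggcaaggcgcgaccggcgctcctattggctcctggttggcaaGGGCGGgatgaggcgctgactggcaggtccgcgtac
Psmc6: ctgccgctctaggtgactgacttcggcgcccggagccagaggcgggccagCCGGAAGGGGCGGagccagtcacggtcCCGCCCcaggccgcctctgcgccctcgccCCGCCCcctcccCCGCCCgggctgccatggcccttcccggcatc
Mrpl52: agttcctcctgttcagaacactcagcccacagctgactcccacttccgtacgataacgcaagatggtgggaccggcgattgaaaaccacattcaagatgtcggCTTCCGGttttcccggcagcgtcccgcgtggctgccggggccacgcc
The other 4 are genes of groups with negative medians, picked because they hold GGGCGG, on chromosome 11 from 19924292 to 19924441 (Spred2, plus strand), chromosome 15 from 101173922 to 101174071 (Acvr1b, plus strand), chromosome 13 from 60177536 to 60177685 (Gas1, minus strand) and chromosome 15 from 102406166 to 102406315 (Sp1, plus strand).
Spred2: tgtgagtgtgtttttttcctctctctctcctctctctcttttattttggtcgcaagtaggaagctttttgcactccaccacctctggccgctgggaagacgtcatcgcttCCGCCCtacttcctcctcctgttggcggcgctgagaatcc
Acvr1b: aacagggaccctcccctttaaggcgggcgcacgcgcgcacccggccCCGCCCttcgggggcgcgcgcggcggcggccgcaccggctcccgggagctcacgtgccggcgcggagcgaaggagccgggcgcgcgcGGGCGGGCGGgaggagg
Gas1: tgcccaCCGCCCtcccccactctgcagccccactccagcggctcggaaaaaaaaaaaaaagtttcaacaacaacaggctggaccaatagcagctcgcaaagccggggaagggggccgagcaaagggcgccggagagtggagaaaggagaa
Sp1: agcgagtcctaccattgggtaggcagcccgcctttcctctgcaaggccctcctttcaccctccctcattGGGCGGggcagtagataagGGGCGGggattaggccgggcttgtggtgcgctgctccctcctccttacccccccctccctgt
RefSeq and GENCODE place some starts differently. All 150 bases printed for Sp1 lie inside the GENCODE gene, as do 67 of those for Spred2, 36 for Psmc6, 5 for Acvr1b and 4 for Atp5e.

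The same treatment in p53CryKO cells, which shares no sample with the p53KO contrast, moved mostly the same genes. Of 12406 genes tested in both tables with FPKM of at least 1 in a group, 29.7% were higher and 31.4% lower in p53CryKO cells. Among the 3517 higher in p53KO cells, 3006 (85.5%) were also higher there and 10 lower, and among the 3849 lower in p53KO cells, 3383 (87.9%) were also lower and 11 higher. Seen from the other side, these are 81.7% of the 3679 genes higher and 87.0% of the 3890 lower in p53CryKO cells. Across 12300 genes the log2 fold changes gave a Pearson r of 0.92 and a Spearman correlation of 0.93, a description across genes that are not independent. The complex I, Hedgehog and Notch, and TGF-beta and BMP lists had medians of 1.48, -1.80 and -1.37 in p53CryKO cells, against 1.63, -1.75 and -1.21.

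Some falls and rises named above were not called in p53CryKO cells, among them Cdc25b, Rev1, Hoxa10, Col4a1, Col4a2, Col12a1, Mmp9 and Fgf21. That alone does not show a difference. In untreated p53CryKO cells Hoxa10 stood at only 0.311 FPKM and Fgf21 at 0.0453, and Fgf21 reached 2.46 there after UV. The difference of the log2 fold changes was tested against its implied error with Benjamini-Hochberg adjustment, and 22 of 12300 genes (0.179%) passed an adjusted p of 0.05, 13 with the higher change in p53KO cells. None of the 8 genes just named was among them, which does not show that their changes were equal. The implied SE of the difference was 2.91 for Hoxa10 and 1.52 for Fgf21. Of the group members described above, Dusp6 and Dusp8 were: Dusp6 stood at 20.4 and 15.9 FPKM in p53KO cells and fell from 25.0 to 6.51 in p53CryKO cells (difference 1.58, implied SE 0.38), and Dusp8 differed by 1.98 (implied SE 0.45). The early-response gene Egr1, a zinc finger factor downstream of ERK, rose from 37.1 to 98.0 FPKM in p53KO cells and, in p53CryKO cells, from 3.83 to 32.6 (difference -1.68, implied SE 0.39). With the error taken from the authors' p, Dusp6 and Egr1 no longer passed. Many strongly changed genes share the lowest deposited q (0.000169), so an error taken from p grows with their fold change. That alternative therefore cannot weigh such genes. Klf4, a zinc finger factor of growth arrest, rose from 1.24 to 3.28 in p53KO cells and went from 12.8 to 6.78 in p53CryKO cells (difference 2.31, implied SE 0.43).

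**Figure D5:**
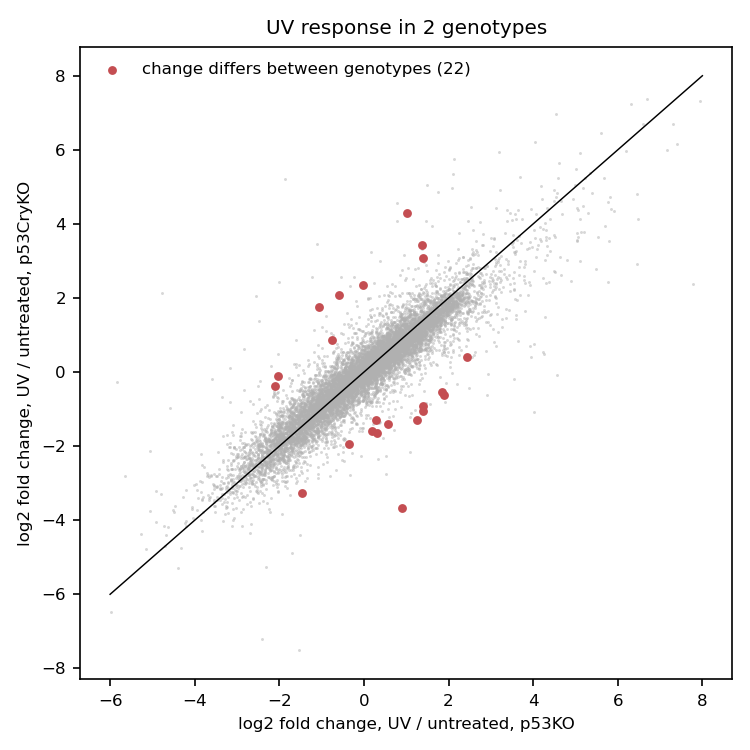
Log2 fold change after UV in p53CryKO cells (vertical) against that in p53KO cells (horizontal) for 12300 genes tested in both tables, 1 point per gene; the line marks equal change. Points follow the line (Pearson r 0.92), and the 22 genes whose change differed at an adjusted p of 0.05 are drawn in colour.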

How the data were processed

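RNA from 4 groups of 2 cultures was poly(A)-selected and sequenced in pairs of reads, per the labels' protocols. The submitters' processing notes name FastQC 0.11.5, Trimmomatic 0.35, STAR 2.5.2, Cufflinks, Cuffdiff and GRCm38, with no further settings. The authors deposited 1 FPKM per gene and group with replicates pooled, a test statistic (a score), p-values and q-values, per the file headers. No value per replicate was in the tables used, so no SD, depth or counting interval is given, and the depth is unknown.

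Log2 fold changes were recomputed as the log2 ratio of the deposited FPKM values without a pseudocount, and the implied standard error is that change divided by the authors' test statistic. Genes were called at q up to 0.05 as the authors deposited it. The genotype difference was tested with a normal p over the combined implied errors, with Benjamini-Hochberg adjustment. The calculation was tried on simulated data with noise drawn from those same implied errors, so that trial cannot show whether the errors are right. Gene classes and exonic lengths, merged over the transcripts of each gene, came from GENCODE M21 on GRCm38 (98.4% of tested genes had an entry). Promoters came from RefSeq. The members and the 43 gene lists were chosen with earlier results of these data known, and 3 list entries were not found. Named genes are, per list, up to 4 called members whose log2 fold change was largest in size and up to 2 uncalled members of highest FPKM, and, among called genes of FPKM of 5 or more, the 20 largest changes each way and the 10 largest in FPKM itself; the text names part of these. Markers, mitochondrial genes, members named outside that rule (Setd3, Setd6, Ehmt2, Dusp8) and the genes of the genotype difference were named after their values were seen. Scripts ran in Python 3.11.15 with pandas 2.3.3, scipy 1.17.1 and numpy 2.4.6, and plots used matplotlib 3.10.9. Alternatives were other q and FPKM thresholds, other scalings, a pseudocount, a length correction and an error taken from the authors' p.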

Additional observations from a re-analysis of the deposited data

Results flagged for a closer look

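The log2 fold change after UV differed between p53KO and p53CryKO cells for 22 of 12300 genes at an adjusted p of 0.05. The test used pooled values and implied errors. At an unadjusted p under 0.05 there were 373, a smaller share than the 0.05 that would pass with no difference at all. The implied errors may therefore be too wide, and genes that did not pass are not shown to respond alike. Differences are given as p53KO minus p53CryKO on the log2 scale. The change was lower in p53KO cells for Egr3 (-3.29), Agt (-2.82), Ifit3 (-2.66), Prl2c3 (-2.36), Sprr1a (-2.04), H3f3a (-1.92), Gm9800 (-1.72), Egr1 (-1.68) and Chchd2 (-1.61). Sprr1a, an epithelial envelope protein, stood at 199 and 516 FPKM in p53KO cells and at 4.74 and 50.7 in p53CryKO cells, so the untreated levels differed as well. H3f3a, a histone H3.3 gene with near-identical copies, fell from 222 to 54.5 FPKM in p53KO cells and stood at 226 and 210 in p53CryKO cells.

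The change was higher in p53KO cells for Dusp6 (1.58), Rgs16 (1.59), Plk2 (1.78), Adamts1 (1.79), 9930013L23Rik (1.96), Dusp8 (1.98), Ranbp6 (2.01), Klf4 (2.31), Spin4 (2.39), Edn1 (2.44), Zcchc3 (2.53), Arl4d (2.54) and Gm5560 (4.59). Edn1, the endothelin-1 peptide, stood at 1.15 and 3.01 FPKM in p53KO cells and at 8.78 and 4.23 in p53CryKO cells. Gm5560 stood at 1.69 and 3.18 FPKM in p53KO cells and at 78.7 and 6.14 in p53CryKO cells. The cause of these differences was not tested.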

How the results depend on the processing

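No paired analysis was possible because the tables hold 1 pooled value per group; leaving out a replicate could not be run for the same reason, and depth per sample is unknown. Of the 3796 genes called higher, 2385 also changed at least 2-fold, and recalled counts were 893 at equal total fragments and 571 at equal coding FPKM. The 4269 lower genes became 2550 at FPKM of 5 or more and 6620 at equal coding FPKM. The 22 genotype differences became 39 with the error taken from the authors' p, with which Dusp6, Adamts1, Egr3, Egr1, Gm9800, Sprr1a, H3f3a and Ranbp6 no longer passed. Because the deposited p has a floor, that error grows with the fold change of strongly changed genes, so their loss is not a measure of weaker evidence. At equal coding FPKM, log2 fold changes reversed for Dusp8 (-0.43), Ehmt2 (-0.26), Ezh2 (-0.73), Fgfr1 (-0.97), Krt19 (-0.039), Polr2e (-0.74), Setd3 (-0.56), Slc25a3 (-0.92), Smo (-0.69) and Uqcrh (-0.81). At equal total fragments they reversed for Dusp8 (-0.21), Ehmt2 (-0.031), Fgfr1 (-0.75) and Setd3 (-0.34). The medians of 15 of 43 lists changed sign at equal coding FPKM, 12 at equal total fragments and 6 with the length bins taken off. Rescaled list medians were chosen after seeing the data.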
